A study of Mus musculus with 15 samples.

Results

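The 10 B-lineage transcription factors described here are Pax5, Ebf1, Bach2, Irf4, Irf8, Spib, Pou2af1, Bcl6, Prdm1 and Ikzf3. They were chosen by gene symbol, and all 10 were present among the 16470 genes of the DMSO table and the 16428 genes of the ibrutinib table. The samples were 15 RNA-Seq libraries of splenic B-cells from leukaemic C57Bl/6 mice, each cultured for 24 h with DMSO or with 5 μM ibrutinib, an inhibitor of Bruton's tyrosine kinase in the B-cell receptor pathway. All mice carried the Eμ-TCL1 transgene, in which an immunoglobulin enhancer drives the human TCL1 oncogene in B-cells and a CD5+ leukaemia resembling chronic lymphocytic leukaemia develops. The Eμ-TCL1 mice had wild-type Trp53 (3 libraries with DMSO, 3 with ibrutinib), and the Eμ-TCL1;p53R172H/+ mice had 1 mutant Trp53 allele in addition (5 with DMSO, 4 with ibrutinib); they are called p53R172H/+ in what follows. Ages and sexes were not in the labels, the B-cells were freed from the spleen mechanically, and no sort was described. The labels do not say whether replicates came from separate mice, so p-values measure the spread between these libraries only. Every level is given in the deposited unit, normalised CPM, which are read counts scaled by the authors to an effective library size. Replicates are named by the numbers in their labels.

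B-cell identity rests on a small network of transcription factors. Ebf1 and Pax5 commit a precursor to the B lineage and switch on genes of the B-cell receptor such as Cd79a and Cd79b, while Spib, an ETS factor, and Pou2af1, the coactivator of the octamer-binding factors, sustain B-cell receptor signalling and the germinal centre response. Irf8, Bach2 and Bcl6 hold a mature B-cell in its state, whereas Irf4 at high levels and Prdm1, which encodes Blimp-1, drive the step to an antibody-secreting plasma cell. Ikzf3 encodes Aiolos, a zinc-finger factor of mature lymphocytes. Several of them also work outside B-cells: Irf8 in myeloid and dendritic cells, Bcl6 and Prdm1 in T-cells and myeloid cells, and Bach2 and Ikzf3 in T-cells.

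The labelled cell type was checked first, since the factors mark B-cells. The sum of 9 B-cell markers (Cd79a, Cd79b, Ms4a1, Cd22, Blk, Fcrla, Cd72, Vpreb3 and Cr2) was between 73.7 and 482.9 CPM in the 5 libraries lowest in their tables and between 462.3 and 5459.4 CPM in the 10 others. These 5 were p53R172H/+ replicates 1 and 2 and Eμ-TCL1 replicate 2 with DMSO, and p53R172H/+ replicate 1 and Eμ-TCL1 replicate 1 with ibrutinib. With DMSO they stood well apart, the next library being at 3122.2 CPM. With ibrutinib p53R172H/+ replicate 3, counted with the 10 others as rich in B-cell markers, lay just above them at 462.3 CPM, and by the mean log2 level of the markers it was below Eμ-TCL1 replicate 1, at 4.53 against 4.90. In the 3 such p53R172H/+ libraries the sum of 12 T-cell markers was between 2152.8 and 4200.9 CPM, against 226 to 1377.5 CPM in the 10 others. In the 2 such Eμ-TCL1 libraries the sum of 11 myeloid markers was between 21052.2 and 29587.3 CPM, against 108.8 to 1210.5 CPM in the 10 others, and erythroid markers were also high, at 12394.8 to 14714.7 CPM. With ibrutinib the T-cell sums lay apart by genotype while the B-cell sums overlapped: B-cell markers were between 73.7 and 1299.8 CPM in p53R172H/+ and between 381.1 and 2706.6 CPM in Eμ-TCL1, and T-cell markers between 728.8 and 2152.8 CPM against 226 to 674.3 CPM. None of the 12 T-cell markers was at 0 in any library, and of the B-cell markers only Vpreb3 was at 0, in 5 libraries. In bulk RNA, fewer B-cells and less of a transcript per B-cell cannot be told apart, and genotype differences of the factors and of the genes linked to them are therefore also given without these 5 libraries. Xist, transcribed from the inactive X chromosome, was above the Y-linked Ddx3y in all 3 Eμ-TCL1 libraries of each treatment, but in only 2 of 5 p53R172H/+ libraries with DMSO and 1 of 4 with ibrutinib. The sex of the mice thus differed with genotype, and its part in the genotype differences was not tested. Reads of the mutant and the wild-type Trp53 allele were not separated, and Trp53 was between 26 and 52.3 CPM in Eμ-TCL1 and between 52.1 and 67 CPM in p53R172H/+ with DMSO.

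The promoters of 3 factors are shown: Spib and Bach2, whose ratios to Pax5 in libraries rich in B-cell markers lay apart between the treatments in opposite directions, and Pou2af1, whose ratio overlapped. Each is the 250 bases before a RefSeq transcription start in GRCm38.p6, read 5′ to 3′ on the gene's strand, and overlaps no annotated exon. The Bach2 window lies inside the gene, which is annotated from 32238804 to 32586108, so its start is an internal one. Capitals mark GGAA on either strand, the core bound by ETS factors such as Spib, and in Bach2 also the ETS-IRF composite, GGAA and GAAA with 2 bases between them, to which Spib or its relative PU.1 binds together with Irf4 or Irf8.
Spib, chr7:44532072-44532321, minus strand: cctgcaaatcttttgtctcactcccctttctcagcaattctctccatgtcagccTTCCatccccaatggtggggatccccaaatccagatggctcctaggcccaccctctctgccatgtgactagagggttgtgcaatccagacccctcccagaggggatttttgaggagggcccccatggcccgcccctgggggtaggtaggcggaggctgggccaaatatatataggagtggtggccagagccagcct
Pou2af1, chr9:51213440-51213689, plus strand: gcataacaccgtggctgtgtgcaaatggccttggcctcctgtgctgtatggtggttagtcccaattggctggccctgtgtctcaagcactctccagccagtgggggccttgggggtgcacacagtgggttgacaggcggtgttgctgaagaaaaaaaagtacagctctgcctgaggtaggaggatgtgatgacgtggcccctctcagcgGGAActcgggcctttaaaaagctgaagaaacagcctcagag
Bach2, chr4:32417185-32417434, plus strand: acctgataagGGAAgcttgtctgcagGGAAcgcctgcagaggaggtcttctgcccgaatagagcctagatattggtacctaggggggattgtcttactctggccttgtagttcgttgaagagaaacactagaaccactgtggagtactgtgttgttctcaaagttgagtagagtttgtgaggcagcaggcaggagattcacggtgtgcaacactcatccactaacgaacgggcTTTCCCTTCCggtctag
The Spib and the Pou2af1 window each held 1 GGAA core. The Bach2 window held 4, of which those on the opposite strand 17 to 8 bases before the start form the composite. Of the members, 9 had promoter sequences in RefSeq, 12 promoters in all, and all 12 held the core, as did 93.4% of 32851 mouse promoters. The composite was found in 2 of the 12, a window of Bach2 and a window of Bcl6, against 2.30% of all promoters. Both of these windows lie inside their genes as annotated. The octamer ATGCAAAT (1.60%) and the palindrome bound by Ebf1, TCCC and GGGA with 2 bases between them (0.779%), were found in none of the 12. Both strands were searched, and a match of letters is a description of these windows only.

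Pax5 and Ebf1, the factors of B-lineage commitment, varied with the B-cell markers over the whole range of the data. Pax5 (chromosome 4, 44524757 to 44710487, minus strand, GRCm38) was at 19.5, 190.6 and 135.5 CPM in Eμ-TCL1 replicates 2, 3 and 4 with DMSO, and at 6.5, 7.6, 135.8, 124.9 and 154.9 CPM in p53R172H/+ replicates 1 to 5. With ibrutinib it was at 19.8, 150.3 and 76.9 CPM in Eμ-TCL1 replicates 1, 3 and 4, and at 1.9, 18.7, 43 and 58.2 CPM in p53R172H/+ replicates 1, 3, 4 and 5. The genotypes overlapped in both tables, and the low values were those of the libraries poor in B-cell markers and of p53R172H/+ replicate 3 with ibrutinib. Ebf1 (chromosome 11, 44617317 to 45008091, plus strand) gave 50.4, 183.8 and 127 CPM in Eμ-TCL1 and 9.3, 13.1, 211, 262 and 163.8 CPM in p53R172H/+ with DMSO, in the same order of replicates. With ibrutinib it gave 33.6, 107.2 and 76.9 CPM in Eμ-TCL1 and 2, 22.6, 62.2 and 99 CPM in p53R172H/+. Its groups overlapped as well, and p53R172H/+ replicate 1 with ibrutinib was the lowest library for both genes.

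Pax5 varied far less when set against Cd79a and Cd79b of the same library. Both are genes that Pax5 and Ebf1 activate, so a steady ratio cannot show that Pax5 per B-cell was constant. Such a ratio removes the scaling of the library, except for the 1 added to each value, which matters where levels are low. Divided by the geometric mean of Cd79a and Cd79b there, Pax5 was between 0.248 and 0.303 in the 5 DMSO libraries rich in B-cell markers and between 0.248 and 0.333 in all 8. With ibrutinib the same ratio was between 0.169 and 0.270 in the 5 B-cell-rich libraries and between 0.169 and 0.339 in all 7. The ranges of the 2 tables overlapped, both in the B-cell-rich libraries and over all libraries. The Ebf1/Pax5 ratio was between 0.938 and 2.51 with DMSO and between 0.715 and 1.69 with ibrutinib over all libraries. Genes closest to Pax5 in profile over the 15 libraries were the MHC class II genes H2-Eb1 and H2-Ab1 and the motor protein gene Myo1e, which differed from it by a root mean square of 0.19, 0.20 and 0.23 on the log2 scale after centring in each table, where Pax5 itself varied by 1.80.

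**Figure D1:**
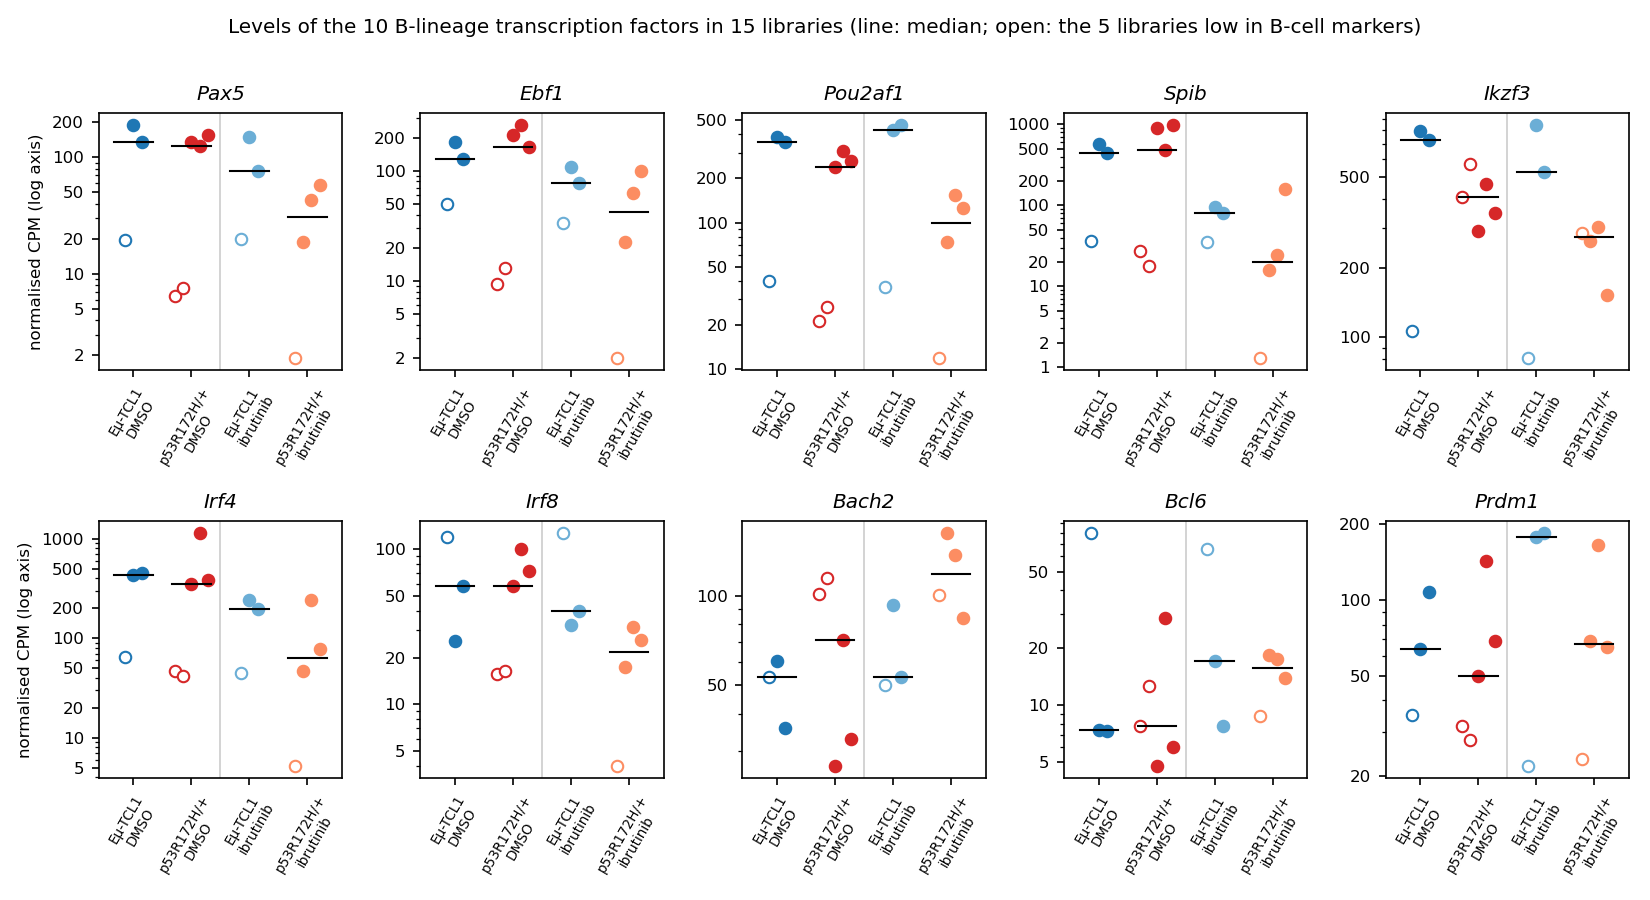
Level of each of the 10 factors in normalised CPM (vertical log axis) in every library, by genotype and treatment. Each point is a library, the line is the group median, and open points are the 5 libraries low in B-cell markers. The 3 open DMSO points lie below all the other DMSO libraries for Pax5, Ebf1, Pou2af1, Spib, Irf4 and Prdm1 but not for Ikzf3, Irf8, Bach2 and Bcl6.

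Spib and Pou2af1, which sustain B-cell receptor signalling, had the highest medians of the members in the B-cell-rich DMSO libraries once levels were divided by exon length. Spib (chromosome 7, 44525993 to 44532071, minus strand) was at 36.2, 567.2 and 445.3 CPM in Eμ-TCL1 and at 27.1, 18, 912.6, 489.4 and 994.2 CPM in p53R172H/+ with DMSO. With ibrutinib it was at 34.8, 95.7 and 81.3 CPM in Eμ-TCL1 and at 1.3, 15.9, 24.2 and 158.7 CPM in p53R172H/+. Its 5 B-cell-rich DMSO libraries, at 445.3 CPM or more, all lay above every ibrutinib library, at 158.7 CPM or less. Pou2af1 (chromosome 9, 51213708 to 51240080, plus strand) was at 39.9, 383.9 and 354.4 CPM in Eμ-TCL1 and at 21.5, 26.6, 240.3, 308.9 and 262.8 CPM in p53R172H/+ with DMSO. In the ibrutinib table it was at 36.6, 424.6 and 464.9 CPM in Eμ-TCL1 and at 12, 73.3, 153.8 and 125.8 CPM in p53R172H/+. Among the B-cell-rich libraries the p53R172H/+ values of Pou2af1 were below those of Eμ-TCL1 in both tables, and with the other libraries they overlapped. Among these B-cell-rich libraries 32.7% of all genes with DMSO and 34.0% with ibrutinib did not overlap between genotypes. Their B-cell markers with ibrutinib were at 462.3 to 1299.8 CPM in p53R172H/+, against 2239.4 and 2706.6 CPM in Eμ-TCL1. Per kilobase of exon, the median over the 5 B-cell-rich DMSO libraries was 197.8 for Spib, 121.2 for Pou2af1 and 87.6 CPM per kilobase for Irf4, the third. Irf4 ran from 71.3 to 234.2 and overlapped both Spib (155.3 to 346.7) and Pou2af1 (94.3 to 150.6 CPM per kilobase). In the 5 B-cell-rich ibrutinib libraries the order was Pou2af1 (60.3), Irf4 (39.6), Ikzf3 (34.5), Prdm1 (29.6) and Spib (28.4 CPM per kilobase), and the ranges of all of these overlapped. Bcl6 had the lowest median in both tables, at 1.09 and 2.52 CPM per kilobase. Pou2af1 was closest in profile to Cd79b, Cd38 and Prr5 (root mean square differences of 0.30, 0.33 and 0.35), and Spib to Snn, Faim3 and Bcar3 (0.37, 0.50 and 0.53).

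Irf4 and Irf8, interferon regulatory factors that share DNA sites, differed in where they were high. Irf4 (chromosome 13, 30749226 to 30766976, plus strand) was at 64.6, 429.4 and 450 CPM in Eμ-TCL1 and at 46.8, 41.4, 349.7, 1148.1 and 380.9 CPM in p53R172H/+ with DMSO. With ibrutinib the values were 44.6, 243.3 and 194.2 CPM in Eμ-TCL1 and 5.2, 46.9, 244.1 and 78.4 CPM in p53R172H/+. The B-cell-poor libraries were lowest in each table, and p53R172H/+ replicate 4 was the highest of its group both times. Irf8 (chromosome 8, 120736358 to 120756694, plus strand) was at 120.6, 25.7 and 57.7 CPM in Eμ-TCL1 and at 15.7, 16.3, 58.1, 100.9 and 72.8 CPM in p53R172H/+ with DMSO. The ibrutinib libraries had 128, 32.5 and 40 CPM in Eμ-TCL1 and 4, 17.3, 31.3 and 26.1 CPM in p53R172H/+. Its highest value in each table came from the Eμ-TCL1 library rich in myeloid markers. With ibrutinib every p53R172H/+ library was below every Eμ-TCL1 library, the nearest pair being 31.3 and 32.5 CPM. The groups did not overlap there for 12.7% of all genes. The Irf4/Irf8 ratio was between 5.18 and 16.1 in the 5 B-cell-rich DMSO libraries, between 2.62 and 7.59 in the 5 with ibrutinib, and between 0.354 and 2.86 in the 5 B-cell-poor libraries.

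Bach2 and Bcl6, repressors that hold back plasma cell differentiation, did not follow the B-cell markers. Bach2 (chromosome 4, 32238804 to 32586108, plus strand) was at 53.3, 60.3 and 35.7 CPM in Eμ-TCL1 and at 101.4, 114.8, 26.7, 70.9 and 33 CPM in p53R172H/+ with DMSO. In the ibrutinib table the values were 50.1, 93 and 53.4 CPM in Eμ-TCL1 and 100.7, 163.1, 136.7 and 83.8 CPM in p53R172H/+. It was highest with DMSO in the pair of p53R172H/+ libraries rich in T-cell markers, and with ibrutinib in p53R172H/+ replicate 3, which had 1377.5 CPM of T-cell markers. The ibrutinib library with the most T-cell markers, p53R172H/+ replicate 1 at 2152.8 CPM, had less Bach2 than replicates 3 and 4. Bcl6 (chromosome 16, 23965052 to 23988852, minus strand) was at 79.9, 7.4 and 7.3 CPM in Eμ-TCL1 and at 7.8, 12.5, 4.8, 28.5 and 6 CPM in p53R172H/+ with DMSO. Under ibrutinib it was at 65.5, 16.9 and 7.8 CPM in Eμ-TCL1 and at 8.8, 18.2, 17.5 and 13.8 CPM in p53R172H/+. In both tables the library rich in myeloid and erythroid markers was the highest for Bcl6, and the other libraries of the 2 genotypes overlapped. The part of T-cell and myeloid RNA in the levels of Bach2, Irf8 and Bcl6 was not tested.

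Prdm1, the plasma cell regulator, and Ikzf3 completed the set. Prdm1 (chromosome 10, 44437177 to 44528501, minus strand) was at 35, 64.1 and 107.5 CPM in Eμ-TCL1 and at 31.7, 27.9, 49.9, 143.1 and 68.7 CPM in p53R172H/+ with DMSO. Its ibrutinib levels were 22, 177.8 and 185.3 CPM in Eμ-TCL1 and 23.5, 69.1, 164.9 and 65.1 CPM in p53R172H/+. The genotypes overlapped in both tables, and the B-cell-poor libraries were lowest in each. Ikzf3 (chromosome 11, 98464902 to 98546031, minus strand) was at 106, 797.7 and 726.3 CPM in Eμ-TCL1 and at 411.5, 570.1, 292.3, 468.7 and 349.8 CPM in p53R172H/+ with DMSO. With ibrutinib the levels were 81.3, 847.7 and 524.4 CPM in Eμ-TCL1 and 285.9, 263.6, 301.7 and 152.4 CPM in p53R172H/+. All p53R172H/+ values of Ikzf3 lay between the myeloid-rich Eμ-TCL1 library and the B-cell-rich ones in each table. In the T-cell-rich libraries Ikzf3 stayed between 285.9 and 570.1 CPM where Pax5 was between 1.9 and 7.6 CPM.

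**Figure D2:**
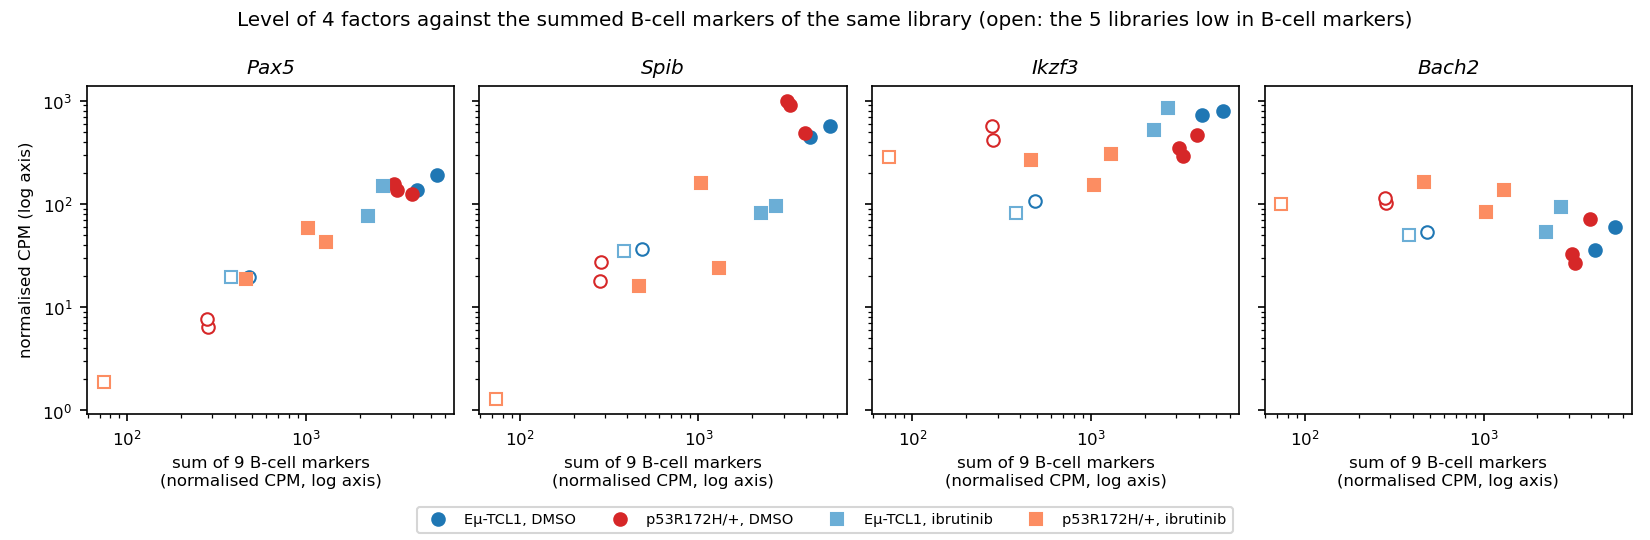
Level of Pax5, Spib, Ikzf3 and Bach2 (vertical log axis, normalised CPM) against the sum of 9 B-cell markers in the same library (horizontal log axis, normalised CPM), 1 point per library, circles for DMSO and squares for ibrutinib. Pax5 rises with the markers from 1.9 CPM to 190.6 CPM, Spib follows with the ibrutinib libraries lower, and Ikzf3 and Bach2 stay at 285.9 CPM or more and at 100.7 CPM or more in the 3 libraries rich in T-cell markers.

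The first comparison asked whether the mutant Trp53 allele changed the factors in untreated cells. None of the 10 passed the test with DMSO: in limma, 0 of 10 had an adjusted p under 0.05, against 0.0121% of all genes (2 of 16470), and 0 of 10 had an unadjusted p under 0.05, against 8.17% of all genes. Of the 10, 8 had a lower mean in p53R172H/+, where 46.7% of all genes did, and the median log2 difference was -0.35 for the factors and 0.04 for all genes. This count turned with the libraries used: without the 3 T-cell-rich libraries 7 of 10 were higher with a median of 0.51, without the 5 libraries low in B-cell markers 5 of 10 were higher with a median of 0.11, and with the B-cell marker score as a covariate 6 of 10 were higher with a median of 0.061. Pax5 had the largest difference, -0.87 ± 1.30 on the log2 scale (SE, limma adjusted p = 0.823), and Spib was at -0.16 ± 1.61 (adjusted p = 0.98). In both cases the error exceeded the difference, and each group held libraries rich and poor in B-cell markers. Adjusted p-values of the 10 ran from 0.768 to 0.985 in limma, and exact permutation tests of the 8 libraries gave p from 0.393 to 1.0, where the smallest possible two-sided p is 0.0357.

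In ibrutinib the differences were larger in size for all factors but Bcl6, and again did not pass the test. No factor had an adjusted p under 0.05 in limma (0 of 10, against 0% or 0 of 16428 genes), while 2 of 10 had an unadjusted p under 0.05, against 12.0% of all genes. These 2 were Bach2, higher in p53R172H/+ by 0.89 ± 0.31 on the log2 scale (SE, limma adjusted p = 0.347), and Irf8, lower by -1.74 ± 0.74 (limma adjusted p = 0.415). Irf8 was also the only factor of the 10 whose groups did not overlap, against 12.7% of all genes. Its exact permutation p of 0.0571 is the smallest that 7 libraries allow, and that of Bach2 was 0.114. Without the myeloid-rich Eμ-TCL1 library, replicate 1, the Irf8 difference was -1.14 (limma adjusted p = 0.509). In all, 9 of 10 factors had a lower mean in p53R172H/+, against 54.4% of all genes, with a median of -1.38 against -0.05. Without the 3 T-cell-rich libraries 8 of 10 were lower, with a median of -0.47, without the 5 libraries 8 of 10 with a median of -1.06, and with the B-cell marker score as a covariate only 3 of 10, with a median of 0.16. The differences of Spib (-1.73 ± 1.27), Pax5 (-1.67 ± 1.13), Pou2af1 (-1.57 ± 1.15), Irf4 (-1.40 ± 1.21) and Ebf1 (-1.36 ± 1.16) were close to their errors, with adjusted p-values from 0.563 to 0.626 in limma. Bcl6, Prdm1 and Ikzf3 differed by -0.54 to -0.45.

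With the B-cell marker score of each library as a covariate, the differences of Pax5 and Pou2af1 lay between -0.011 and 0.18 in both tables. For Pax5 the DMSO difference was then -0.011 ± 0.15 and the ibrutinib difference 0.15 ± 0.24, and for Pou2af1 they were -0.011 ± 0.24 and 0.18 ± 0.55. Ebf1 moved to 0.099 ± 0.32 and 0.49 ± 0.31, and Irf4 to 0.52 ± 0.42 and 0.50 ± 0.44. Spib alone had an unadjusted p under 0.05 in DMSO in this fit, against 16.6% of all genes: it was higher in p53R172H/+ by 0.89 ± 0.28 (limma adjusted p = 0.196). Bach2 was at 1.01 ± 0.37 in ibrutinib (limma adjusted p = 0.473), and was the only factor of the 10 with an unadjusted p under 0.05 there, against 9.83% of all genes. The score holds no T-cell markers, whose sums with ibrutinib were 728.8 to 2152.8 CPM in p53R172H/+ and 226 to 674.3 CPM in Eμ-TCL1. Their part in the Bach2 difference was not tested. The covariate is itself made largely of genes that Pax5 and Ebf1 activate.

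Without the 5 libraries low in B-cell markers, Ikzf3 and Pou2af1 were the factors with an unadjusted p under 0.05 in both tables. Ikzf3 was lower in p53R172H/+ by -1.07 ± 0.26 in DMSO (292.3, 468.7 and 349.8 against 797.7 and 726.3 CPM, limma adjusted p = 0.173) and by -1.53 ± 0.39 in ibrutinib (263.6, 301.7 and 152.4 against 847.7 and 524.4 CPM, limma adjusted p = 0.164). Pou2af1 was lower by -0.45 ± 0.17 in DMSO (limma adjusted p = 0.29) and by -1.97 ± 0.34 in ibrutinib (limma adjusted p = 0.109). The groups of Ikzf3, Pou2af1 and Irf8 did not overlap in either table, nor did those of Pax5 and Prdm1 in ibrutinib, which made 3 of 10 factors in DMSO against 32.7% of all genes and 5 of 10 in ibrutinib against 34.0%, with 3 against 2 libraries. Irf8 was then higher in p53R172H/+ with DMSO, by 0.95 ± 0.43, and at -0.56 ± 0.28 with ibrutinib (limma adjusted p = 0.358 and 0.379). Spib was at 0.60 ± 0.39 and -1.13 ± 0.99, Ebf1 at 0.45 ± 0.28 and -0.79 ± 0.63, Irf4 at 0.28 ± 0.60 and -1.16 ± 0.70, and Bach2 at -0.22 ± 0.50 and 0.80 ± 0.38 with DMSO and ibrutinib. Prdm1 was at -0.0719 ± 0.53 and -0.99 ± 0.44, Bcl6 at 0.35 ± 0.80 and 0.47 ± 0.35, and Pax5 with DMSO at -0.22 ± 0.20, and limma adjusted p-values of these differences were 0.324 or more. At an unadjusted p under 0.05 the factors counted 2 of 10 in DMSO, against 17.1% of all genes, and 3 of 10 in ibrutinib, the third being Pax5 (-1.55 ± 0.55, limma adjusted p = 0.251), against 17.7%. None of these passed the adjusted threshold in limma, as 0.0729% of all genes did with DMSO and 0% with ibrutinib, and B-cell markers were still lower in the remaining p53R172H/+ libraries with ibrutinib, at 462.3 to 1299.8 CPM against 2239.4 and 2706.6 CPM.

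**Figure D3:**
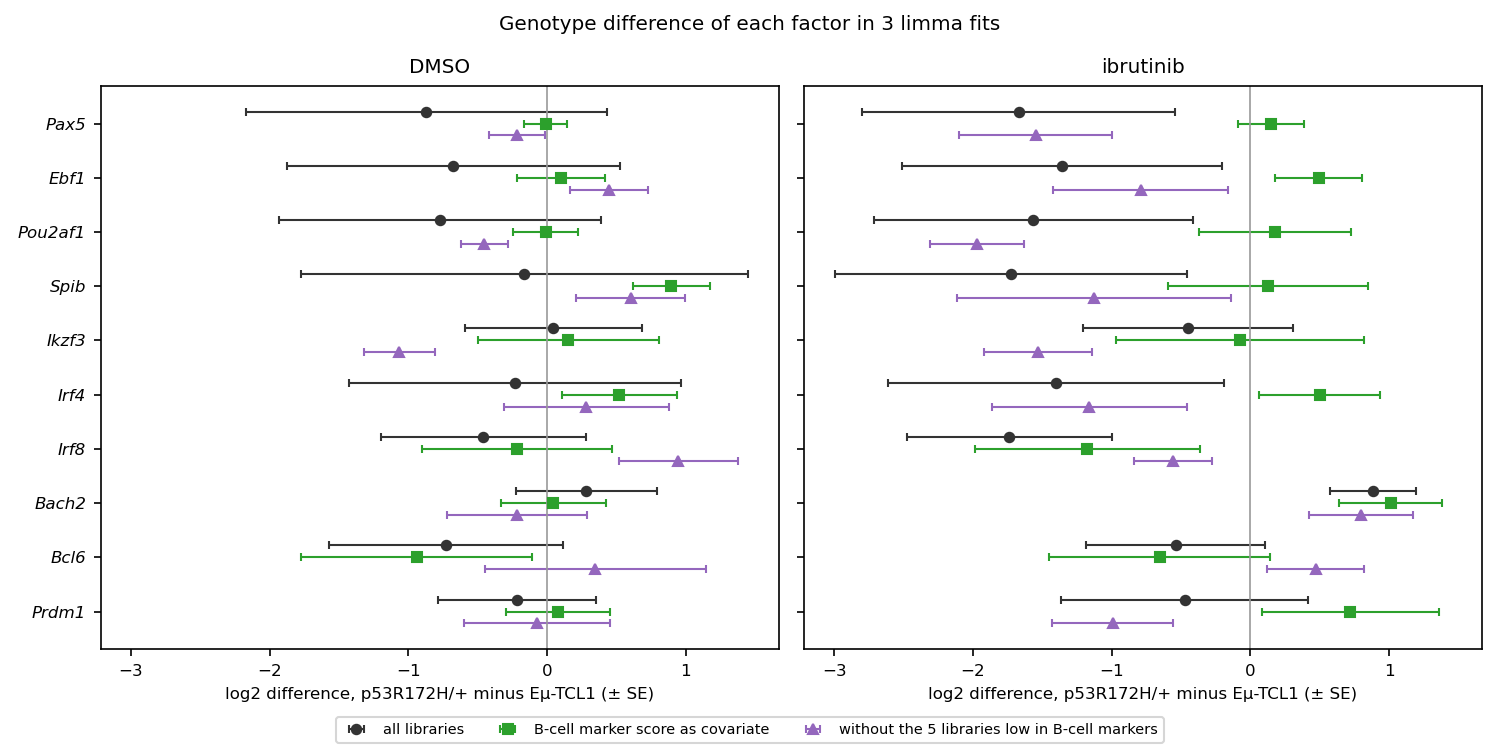
Difference between genotypes (p53R172H/+ minus Eμ-TCL1, log2 of the value plus 1) for each factor with DMSO and with ibrutinib, with its standard error, in 3 limma fits: all libraries (circles), the B-cell marker score as a covariate (squares) and without the 5 libraries low in B-cell markers (triangles). Pax5 moves from -0.87 to -0.011 with DMSO and from -1.67 to 0.15 with ibrutinib once the score is included, while Bach2 stays between 0.80 and 1.01 with ibrutinib in all 3 fits. None of the 3 fits has a term for T-cell markers.

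The second question was whether the genotype difference depended on ibrutinib. The interaction was fitted over the 15 libraries and the 15869 genes of both tables, in which a shift of a whole table cancels. None of the 10 factors passed (limma adjusted p = 1.0 for each, 0 of 10 at an unadjusted p under 0.05, against 0% and 0.523% of all genes). The largest interactions were those of Spib, -1.56 ± 2.26, and Irf8, -1.28 ± 1.13 on the log2 scale. Within-library ratios of factors that oppose or need each other did not pass between genotypes either. For Irf4/Irf8, Bcl6/Prdm1, Pax5/Prdm1, Bach2/Prdm1 and Ebf1/Pax5 in both tables, 10 comparisons in all, exact permutation p-values were at least 0.171 and adjusted p-values at least 0.913.

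Ratios within a library do not depend on how a table was scaled, except for the 1 added to each value, which matters where levels are low. They were therefore set side by side across the tables, although the pairs with Pax5 as denominator were chosen after their values had been seen and no test was made. The Spib/Pax5 ratio was between 2.97 and 6.68 in the 5 B-cell-rich DMSO libraries, with a median of 3.90. In the 5 B-cell-rich ibrutinib libraries it was between 0.573 and 2.70, with a median of 0.858, and these ranges did not meet. It was lower with ibrutinib in every library number that had both treatments: 2.97 against 0.639 and 3.27 against 1.06 in Eμ-TCL1 replicates 3 and 4, and 3.75, 6.68, 3.90 and 6.38 against 0.793, 0.858, 0.573 and 2.70 in p53R172H/+ replicates 1, 3, 4 and 5. The labels do not say that a number marks the same mouse. For p53R172H/+ replicate 3 the DMSO and ibrutinib libraries differed in Xist (1491.3 and 1.0 CPM) and in Ddx3y (0.1 and 82.1 CPM). Its 2 ratios were therefore not taken to come from 1 mouse. Over all libraries the ranges overlapped, at 1.82 to 6.68 and 0.573 to 2.70, the myeloid-rich Eμ-TCL1 library of each table having 1.82 and 1.72. Relative to the geometric mean of Cd79a and Cd79b in place of Pax5, Spib was between 0.799 and 2.02 with DMSO and between 0.0967 and 0.660 with ibrutinib in the B-cell-rich libraries.

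Ratios of the other factors to Pax5 overlapped between the treatments or lay higher with ibrutinib. Pou2af1/Pax5 was between 1.69 and 2.60 with DMSO and between 2.14 and 5.98 with ibrutinib in the B-cell-rich libraries, and Irf4/Pax5 was between 2.25 and 9.13 and between 1.34 and 5.57, so both overlapped. Prdm1/Pax5 was between 0.340 and 1.15 with DMSO and between 1.12 and 3.77 with ibrutinib, and overlapped only at its ends. Bach2/Pax5 was between 0.203 and 0.571 with DMSO and between 0.621 and 8.33 with ibrutinib, without overlap in these 10 libraries. Its highest value was that of p53R172H/+ replicate 3, and in the 5 B-cell-poor libraries, where Bach2 was kept while Pax5 was low, it was between 2.46 and 35.1. T-cell markers ran from 279.3 to 719.6 CPM in the 5 B-cell-rich DMSO libraries and from 226 to 1377.5 CPM in the 5 with ibrutinib, and their part in the Bach2 ratio was not tested.

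**Figure D4:**
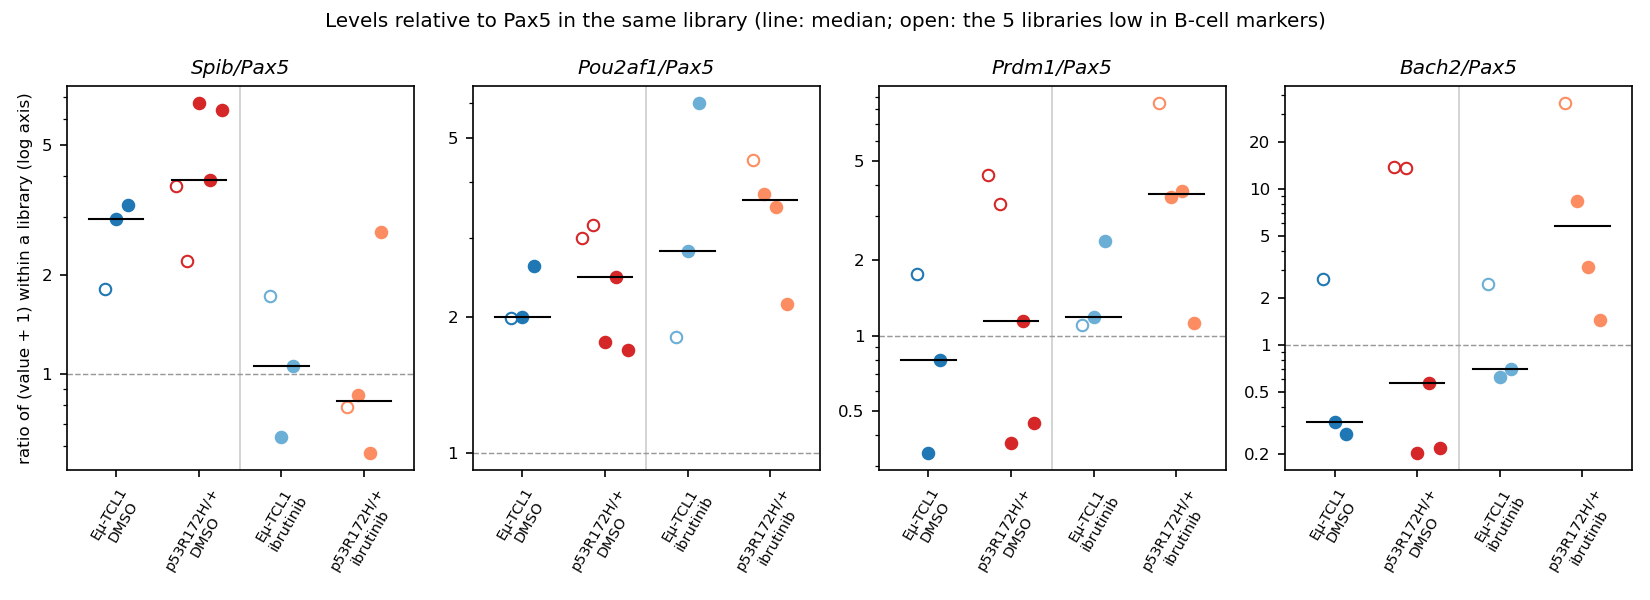
Ratio of Spib, Pou2af1, Prdm1 and Bach2 to Pax5 within each library (vertical log axis, values plus 1), by genotype and treatment, with the group median as a line and open points for the 5 libraries low in B-cell markers. Spib/Pax5 lies between 2.97 and 6.68 in the filled DMSO points and between 0.573 and 2.70 in the filled ibrutinib points, while Bach2/Pax5 lies between 0.203 and 0.571 and between 0.621 and 8.33.

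Genes linked to these factors by function were read from the same fits. Of 18 targets activated by Pax5 and Ebf1, 15 had a lower mean in p53R172H/+ with DMSO and all 18 with ibrutinib, against 46.7% and 54.4% of all genes, with median log2 differences of -0.99 and -1.38, and none passed the adjusted threshold in limma. The DMSO count turned without the 3 T-cell-rich libraries, where 12 were higher with a median of 0.22, and without the 5 libraries low in B-cell markers 14 were lower with DMSO and 16 with ibrutinib (medians of -0.49 and -1.32). With the B-cell marker score as a covariate 12 were lower with DMSO and 11 with ibrutinib, at medians of -0.37 and -0.28, and that score is made largely of these targets. The lowest p belonged to Fcer2a, which encodes the IgE receptor CD23. It was at 7.6, 30.5 and 30.1 CPM in Eμ-TCL1 and at 0.4, 1.2, 3.4, 4.4 and 3.3 CPM in p53R172H/+ with DMSO. Its groups did not overlap, which held for 1 of the 18 targets and for 6.45% of all genes, and its difference was -2.69 ± 0.61 (limma adjusted p = 0.319). In ibrutinib it was at 5.2, 5 and 2.3 CPM against 0.1, 0.6, 1.4 and 0.9 CPM, a difference of -1.56 ± 0.35 (limma adjusted p = 0.223). Without the 5 libraries low in B-cell markers the differences were -2.74 ± 0.21 and -1.20 ± 0.34 (limma adjusted p = 0.0594 and 0.187). The DMSO difference passed the threshold with the B-cell marker score as a covariate, at -2.34 ± 0.31 (limma adjusted p = 0.033), and with sample quality weights, at -2.92 ± 0.32 (limma adjusted p = 0.00339). The first of these fits called 0.437% of all genes, and the second 299 genes as higher and 504 as lower of 16470. Fcer2a was thus low in p53R172H/+ with DMSO in libraries rich in B-cell markers too, where Pax5 overlapped between genotypes. Nedd9, an adaptor of integrin signalling, was next with ibrutinib, at -0.59 ± 0.21 (limma adjusted p = 0.347), and at -0.44 ± 0.22 without the 5 libraries.

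Genes that Pax5 represses, Prdm1 among them, split evenly in DMSO, 5 of 10 with a higher mean in p53R172H/+. With ibrutinib 6 of 10 were higher. Of all genes, 8777 of 16470 were higher with DMSO and 7491 of 16428 with ibrutinib. The T-cell genes Tcf7 and Cd28 led with ibrutinib, higher by 2.42 ± 0.43 and 2.28 ± 0.40 (limma adjusted p = 0.165 for both), in the group whose T-cell markers were higher, and Cd28 is itself among those markers. Of the 10, 4 had an unadjusted p under 0.05 with ibrutinib, against 12.0% of all genes, and 0 with DMSO, against 8.17%. The 4 were Tcf7, Cd28, Gata3 and Grap2, all genes of T-cells. Without the 5 libraries Tcf7 and Cd28 were higher by 2.23 ± 0.53 and 2.21 ± 0.51 with ibrutinib. Csf1r, a myeloid receptor, was lower by -1.85 ± 1.29 with DMSO and by -2.22 ± 1.30 with ibrutinib, and without the 5 libraries it was at 0.75 ± 0.56 and -0.003 ± 0.50. Among 13 plasma cell genes, 12 had a lower mean in p53R172H/+ with DMSO, and of 12 tested with ibrutinib 11 had, against 46.7% and 54.4% of all genes, with medians of -1.30 and -1.09. The counts were 13 and 11 without the 5 libraries, with medians of -1.03 and -1.02. None passed the adjusted threshold in limma, except that with sample quality weights Igj, Xbp1, Derl3, Fkbp11 and Creld2 passed with DMSO, 5 of 13. In that fit 299 of all 16470 genes passed as higher and 504 as lower. Xbp1, the regulator of the secretory program downstream of Prdm1, was at 157.4, 124.4 and 205.3 CPM in Eμ-TCL1 and at 44.6, 45.7, 51.3, 129 and 52.3 CPM in p53R172H/+ with DMSO. Ibrutinib libraries had values of 131.2, 115.4 and 178.1 CPM against 41.8, 65.6, 114.7 and 47.7 CPM. The differences were -1.42 ± 0.37 (limma adjusted p = 0.395) and -1.15 ± 0.36 (limma adjusted p = 0.319), and -1.17 ± 0.51 and -1.001 ± 0.42 without the 5 libraries. Among libraries of its genotype p53R172H/+ replicate 4 was the only one inside the Eμ-TCL1 range with DMSO, and just under it with ibrutinib. Igj, the immunoglobulin joining chain, differed by -3.56 ± 0.83 with DMSO (limma adjusted p = 0.338) and by -3.47 without the 5 libraries (limma adjusted p = 0.305). With ibrutinib its difference was smaller, at -1.69 ± 1.08 (limma adjusted p = 0.551) and at -0.91 ± 1.18 without the 5 libraries. Its groups overlapped there, p53R172H/+ replicate 3 being at 184.1 CPM and Eμ-TCL1 between 60.6 and 183.3 CPM.

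Of 29 other B-cell and plasma cell regulators tested, none passed the adjusted threshold in either table, and 6 with DMSO and 5 with ibrutinib had an unadjusted p under 0.05, against 8.17% and 12.0% of all genes. With sample quality weights 3 of them passed with DMSO, Myb and Myc higher and Xbp1 lower, against 299 higher and 504 lower of all 16470 genes. Lef1, a Wnt pathway factor that is also high in T-cells, had the lowest p of these with ibrutinib. It was at 25.6, 19.4 and 63.9 CPM in Eμ-TCL1 and 214.8, 277.1, 135.8 and 199.2 CPM in p53R172H/+, higher by 2.62 ± 0.42 (limma adjusted p = 0.165). With DMSO the difference was 2.47 ± 0.80 (limma adjusted p = 0.518), and the 2 T-cell-rich libraries were highest, at 227.4 and 301.4 CPM. Myc was higher with DMSO by 1.82 ± 0.53 (limma adjusted p = 0.473), Klf2, a quiescence factor, was higher with ibrutinib by 1.15 ± 0.26 (limma adjusted p = 0.226), and Bcl11a was lower with ibrutinib by -2.58 ± 0.83 (limma adjusted p = 0.328). Klf2 too was highest in the T-cell-rich libraries, at 210.9 and 206.4 CPM with DMSO and at 147.7 CPM with ibrutinib, and the part of T-cell RNA in it was not tested. Of 20 paralogues and partners of the factors, 2 with DMSO and 3 with ibrutinib had an unadjusted p under 0.05, against 8.17% and 12.0% of all genes. None of the 20 passed the adjusted threshold, except Irf3 with DMSO in the same fit with sample quality weights. Spi1, which encodes PU.1, the relative of Spib used in myeloid cells, was lower in p53R172H/+ by -2.20 ± 0.95 with DMSO and by -2.37 ± 0.99 with ibrutinib (limma adjusted p = 0.608 and 0.405), in tables where 1 Eμ-TCL1 library was rich in myeloid markers. Spi1 was at -0.38 ± 0.24 and -0.76 ± 0.23 without the 5 libraries. In the same fits Lef1 was at 2.44 ± 0.57 and Bcl11a at -2.09 ± 0.53 with ibrutinib, and Myc at 1.43 ± 0.21 with DMSO. Klf2 was at 1.18 ± 0.22 with ibrutinib but at -0.97 ± 0.29 with DMSO, the opposite direction. None of these was past the adjusted threshold in limma.

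The remaining nearest profiles described the other factors. Ebf1 was closest to Slc7a7, Mef2c and Ciita (root mean square differences of 0.33, 0.39 and 0.40), Irf4 to Tnfrsf13c, Ahnak2 and Tcf4 (0.40, 0.45 and 0.47), and Ikzf3 to Apobec3, Cxcr5 and Dnajc7 (0.31, 0.34 and 0.39). For Bach2 the nearest were Carns1, BC025920 and Ttc39b (0.30, 0.32 and 0.33), for Bcl6 they were Dtx4, Ankrd28 and Cln8 (0.26, 0.33 and 0.41), for Irf8 Bub1b, Anxa5 and Plxnc1 (0.41, 0.43 and 0.43), and for Prdm1 Chrnb1, Rpgrip1 and Irgq (0.44, 0.45 and 0.45). These were ranked among 9285 genes over 15 libraries. Among the factors themselves, Pax5 and Pou2af1 were nearest to each other (0.45, against own spreads of 1.80 and 1.69). Prdm1 and Ikzf3 were also each the nearest of the other (0.86), as were Bcl6 and Irf8 (1.04), but these differences were about as large as the spreads of the genes themselves, 0.94 to 1.17.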

How the data were processed

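RNA from 15 cultures of splenic B-cells, kept for 24 h with DMSO or ibrutinib, was measured by RNA-Seq. Reads were aligned with TopHat2 2.0.12, processed with SAMtools 0.1.19, counted with HTSeq on GRCm38 (GENCODE M2) and normalised with edgeR, per the labels and the study's methods. The deposited signal values are CPM scaled by the authors to an effective library size, separately for each treatment, and rounded to 0.1. The values of a library summed to between 855660.6 and 1243998.7 with DMSO and between 756625.4 and 1359649.7 with ibrutinib. Genes with low CPM had been removed by the authors. Whole reads could not be recovered, so the depth is unknown, no counting error is given and no count model was run. Whether counting used strand is not given in the sources used here, and Pax5, Ebf1, Bach2 and Bcl6 overlap annotated genes on the opposite strand.

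Samples were grouped by genotype and treatment from their labels. For each table, limma 3.58.1 (in R 4.3.3, linear models moderated by eBayes with an intensity trend) was fitted to log2(value + 1) with genotype as the only term, with Benjamini-Hochberg adjustment over all genes and a threshold of 0.05. This scale understates the change of low genes. No filter was applied. The interaction was fitted over 15869 genes. Two-sided exact permutation tests and ratios, on values plus 1, were computed in Python 3.11.15. The B-cell score is the mean over 9 markers of log2(value + 1). The fits were tested on simulated data. Alternatives were other pseudocounts (0.1, 5), a minimum mean of 5, quantile normalisation, rescaled columns, sample quality weights, a replicate block, the B-cell score as a covariate and left-out libraries, of which the set of 5 libraries was chosen after seeing the data. Levels were not tested between treatments, since the tables were scaled separately.

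The members and lists were chosen with earlier results of these data known. Named genes are the members, the 2 genes per direction with the lowest p in each list and comparison, of which part is printed, the 3 nearest profiles of each member among genes with a mean of at least 5, and markers beside a result. Gene positions are from GENCODE M21 and promoters from RefSeq, in which 9 of 10 members were found. A single gene of the B-cell marker and target lists is not reported here and was left out of both lists.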

Additional observations from a re-analysis of the deposited data

How the results depend on the processing

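The count of factors past the adjusted threshold was 0 of 10 in both tables under every alternative run, and no gene passed in the interaction under any of them, whereas the count of all genes and the direction of most factors depended on which libraries were used. With DMSO, where 2 genes passed, 6 did with a pseudocount of 5, 803 with sample quality weights, 72 with the B-cell score as a covariate, 1 without the 3 T-cell-rich libraries, 12 without the 5 libraries low in B-cell markers, and 0 to 61 when 1 library was left out (0 without Eμ-TCL1 replicate 3, 61 without Eμ-TCL1 replicate 2). With ibrutinib, where 0 passed in limma (1973 at an unadjusted p under 0.05), 2 did with columns rescaled to a common sum, 28 with quality weights, and 0 to 24 when 1 library was left out (24 without Eμ-TCL1 replicate 1). The cause was not tested. Depth is unknown, so what it limits could not be stated.

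The following log2 differences (p53R172H/+ minus Eμ-TCL1) changed sign. With DMSO, quantile normalisation gave -0.0594 for Ikzf3. Quality weights gave 0.0414 for Ebf1, -0.0423 for Bach2, 0.24 for Irf8, 0.25 for Spib and -1.004 for Ikzf3. The B-cell score as a covariate gave 0.0985 for Ebf1, 0.52 for Irf4, 0.89 for Spib and 0.078 for Prdm1. Without the 3 T-cell-rich libraries Pax5 was at 0.77, Ebf1 at 0.97, Bach2 at -0.28, Irf4 at 1.20, Irf8 at 0.41, Spib at 1.85, Pou2af1 at 0.61, Prdm1 at 0.34 and Ikzf3 at -0.12. Without the 5 libraries Ebf1 was at 0.45, Bach2 at -0.22, Irf4 at 0.28, Irf8 at 0.95, Spib at 0.60, Bcl6 at 0.35 and Ikzf3 at -1.07. With ibrutinib, Bcl6 was at 0.34 with quality weights and at 0.47 without the 5 libraries, Prdm1 at 0.0016 without the 3 T-cell-rich libraries, and the covariate gave 0.15 for Pax5, 0.49 for Ebf1, 0.50 for Irf4, 0.127 for Spib, 0.18 for Pou2af1 and 0.72 for Prdm1. In the interaction the covariate gave 0.0613 for Pax5, 0.13 for Ebf1 and 0.13 for Prdm1.

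Leaving out 1 library at a time gave, with DMSO, -1.15 to 0.33 for Irf4, -1.01 to 0.0802 for Irf8, -1.42 to 0.66 for Spib, -1.28 to 0.36 for Bcl6, -0.62 to 0.17 for Prdm1 and -0.90 to 0.55 for Ikzf3, and for Irf4, Spib, Prdm1 and Ikzf3 the lower end came from leaving out the myeloid-rich Eμ-TCL1 replicate 2, which gave the upper end for Irf8 and Bcl6. With ibrutinib it gave -1.20 to 0.26 for Bcl6, -1.47 to 0.0388 for Prdm1 and -1.45 to 0.23 for Ikzf3, with Eμ-TCL1 replicate 1 at an end of each. In the interaction it gave -1.60 to 0.19 for Pax5, -1.36 to 0.35 for Ebf1, -1.99 to 0.26 for Pou2af1, -0.90 to 0.99 for Bcl6, -1.25 to 0.25 for Prdm1 and -1.50 to 0.45 for Ikzf3. For the log2 ratios, with DMSO, it gave -1.23 to 1.22 for Irf4/Irf8, -1.45 to 0.99 for Bcl6/Prdm1, -0.11 to 0.97 for Bach2/Prdm1 and -0.0478 to 0.66 for Ebf1/Pax5, and with ibrutinib -1.02 to 1.17 for Irf4/Irf8 and -1.23 to 1.73 for Bcl6/Prdm1. Without the 3 T-cell-rich libraries Pax5/Prdm1 was at 0.44 and Bach2/Prdm1 at -0.62 with DMSO. Without the 5 libraries Irf4/Irf8 was at -0.66 and -0.60, Bcl6/Prdm1 at 0.42 and 1.47 (DMSO and ibrutinib), and Bach2/Prdm1 at -0.15 with DMSO.

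With the replicate number as a block, 0 genes passed with DMSO (2 without it) and 0 with ibrutinib and in the interaction, and Irf4 with DMSO moved to 0.14 while no other factor changed sign. The numbers were not taken to pair the samples: across treatments the deviations of libraries with the same number correlated by 0.71 to 0.84 in 5 of 6 pairs but by -0.10 for p53R172H/+ replicate 3, whose 2 libraries also differed in Xist (1491.3 and 1.0 CPM), and across genotypes by -0.17 to 0.25. As a hint from the data and not from the design, 5 of 6 libraries correlated best with their own number.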

Other observations

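Ebf3, a close relative of Ebf1 was present in a few libraries and nearly absent from the others. It was at 81.4 CPM in p53R172H/+ replicate 4 and at 25.2 CPM in Eμ-TCL1 replicate 3 with DMSO, at 1 CPM in Eμ-TCL1 replicate 4, and at 0.1 CPM or less in the 5 remaining DMSO libraries. With ibrutinib the libraries with the same numbers were again the highest, at 12.5 CPM in p53R172H/+ replicate 4, 37.5 CPM in Eμ-TCL1 replicate 3 and 4.5 CPM in Eμ-TCL1 replicate 4, and the other 4 were at 0.9 CPM or less. Ebf1 was not low in these libraries, at 183.8 CPM in Eμ-TCL1 replicate 3 and 262 CPM in p53R172H/+ replicate 4 with DMSO, and at 107.2 CPM and 62.2 CPM with ibrutinib. Ebf3 was chosen from the list of paralogues after its values had been seen, the pattern belongs to single libraries, and it was not tested.

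Nr4a1, an immediate early gene induced by B-cell receptor signals, had values in the tables that lay apart like those of Spib. With DMSO it was at 13.9, 23.9 and 14.4 CPM in Eμ-TCL1 and at 7.2, 9.8, 62.2, 223.6 and 80.6 CPM in p53R172H/+. With ibrutinib it was at 10.3, 0.9 and 0.5 CPM in Eμ-TCL1 and at 0, 0.7, 3.1 and 1 CPM in p53R172H/+, so that in the libraries rich in B-cell markers it was at 14.4 CPM or more with DMSO and at 3.1 CPM or less with ibrutinib. The ibrutinib library with the most, Eμ-TCL1 replicate 1, was the one rich in myeloid markers. The tables were scaled separately, the gene was chosen after its values had been seen, and no test between treatments was made.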
